A study of Mus musculus with 12 samples.

Results

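The repair genes described here are the 39 genes of the routes by which cells clear DNA interstrand crosslinks, taken as the rows of the deposited expression table whose gene name equals a member of a fixed list. All 39 were found, among 55484 genes in the table. Of these, 37 reached 1 FPKM in at least 3 libraries and were tested beside 12847 genes in all. FPKM is a level scaled to transcript length and to the fragments mapped in a library, so levels can be set side by side between genes of different length. Fan1 and Xrcc2 lay below that limit and are given as levels only. The libraries are whole-tissue RNA sequencing of mouse small intestine, 12 in all, with 3 in each of 4 groups. Control is labelled as wild type control. Melphalan received the drug, an alkylating agent that links the strands of DNA to each other. Mel+MSC and MSC+Mel received melphalan and mesenchymal stem cells, which the series title names as human and from umbilical cord. The labels give no mouse strain beyond wild type, no age, sex, dose, hour of collection or meaning for the order of the names, and they do not say whether a library is 1 animal. Every p-value here thus measures the spread between libraries, which may be technical.

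An interstrand crosslink ties both strands of the helix together and stops the replication fork. In the Fanconi pathway a core complex of FANC proteins, with the ligase FANCL and the conjugating enzyme UBE2T, attaches ubiquitin to the FANCI-FANCD2 pair. The marked pair calls in nucleases around the scaffold SLX4 that unhook the link, translesion polymerases fill the gap, and homologous recombination rebuilds the broken strand. Nucleotide excision repair removes the remaining adduct, and the kinases ATM, ATR, CHK1 and CHK2 hold the cell cycle meanwhile. Many of these genes are transcribed mainly in dividing cells, which in the intestine lie in the crypts.

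The promoters of the 3 repair genes with the smallest p between Melphalan and Control are shown first, since 2 of them (Chek1 and Fancl) lay lower and 1 (Mad2l2) lay higher in the drug group. Each holds 250 bases before and 50 after the start given by RefSeq for build GRCm38.p6, written 5′ to 3′ on the gene's own strand. Capitals mark the letters TTCCCGC or TTGGCGC on either strand, which are forms of the site bound by E2F factors. The same windows were searched for CCAAT, the CCAAT box, and for TTTGAA, the element named CHR. The 3 windows shown hold neither.
Chek1 promoter, chr9:36726609-36726908, minus strand: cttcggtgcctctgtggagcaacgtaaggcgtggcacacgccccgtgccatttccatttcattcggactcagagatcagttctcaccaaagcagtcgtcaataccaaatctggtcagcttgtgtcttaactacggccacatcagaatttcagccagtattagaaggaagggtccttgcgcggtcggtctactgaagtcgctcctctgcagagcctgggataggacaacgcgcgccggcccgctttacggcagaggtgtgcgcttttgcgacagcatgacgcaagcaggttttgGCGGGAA
Fancl promoter, chr11:26386834-26387133, plus strand: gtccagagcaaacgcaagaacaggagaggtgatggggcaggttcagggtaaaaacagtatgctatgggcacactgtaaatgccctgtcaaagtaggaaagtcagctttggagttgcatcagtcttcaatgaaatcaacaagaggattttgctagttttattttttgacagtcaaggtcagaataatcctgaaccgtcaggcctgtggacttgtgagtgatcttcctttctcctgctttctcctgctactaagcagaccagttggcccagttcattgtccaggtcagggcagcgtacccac
Mad2l2 promoter, chr4:148130670-148130969, plus strand: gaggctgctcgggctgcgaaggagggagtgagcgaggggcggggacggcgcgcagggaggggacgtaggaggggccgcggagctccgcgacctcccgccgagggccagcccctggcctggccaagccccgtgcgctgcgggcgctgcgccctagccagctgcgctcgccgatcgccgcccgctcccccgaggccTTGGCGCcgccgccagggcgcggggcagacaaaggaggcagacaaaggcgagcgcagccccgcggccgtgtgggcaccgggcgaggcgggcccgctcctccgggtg
The RefSeq starts lie 407, 949 and 536 bases from the starts of these genes in GENCODE, and for Mad2l2 the first of 2 RefSeq starts is shown. An E2F match was found in Chek1 and in Mad2l2 and not in Fancl, so the genes that lay lower and higher are not set apart by it in these windows. Over all members with a RefSeq promoter, 14 of 32 held a match (43.8%), beside 13.9% of 9645 tested genes and 7.79% of all genes with a promoter. Among tested members the match occurred in 11 of 25 with a fitted change below 0 and in 3 of 6 with one above 0. Counting a gene with several starts as matched where any of its windows matched, CCAAT occurred in 19 of 32 members (59.4%, beside 43.1% of tested genes). TTTGAA occurred in 1 of 32 (3.12%, beside 14.8%). Mad2l2 is among those with CCAAT, through its other window, which is not shown. The median GC content of these windows was 57.7% in the members and 61.7% in tested genes. RefSeq promoters were not used here for Ddb2, Fancd2, Rad51d, Rev3l, Usp1, Xpc and Xrcc2.

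The libraries differed within their groups. Their FPKM totals ran from 516851 to 796980, and 11529 to 12703 genes of a library reached 1 FPKM. The read depth is unknown, because FPKM values are not counts. The intestinal label was checked against markers of enterocytes, the absorbing cells of the lining: Vil1, a brush border protein, stood between 374 and 1031 FPKM in the 12 libraries. Melphalan 2 stood apart by its B cell markers, 10 genes whose FPKM summed to 569 there, beside 0.876 and 4.87 in the other Melphalan libraries and 3.37 to 51.3 in Control. Control 3 stood apart by its proliferation genes: 35 tested genes of S phase had a mean level of 2.57 on the log2(FPKM + 1) scale there, beside 3.25 and 3.41 in Control 1 and 2. The genes were counted without a stated strand setting, and the exons of 16 members overlap those of another annotated gene. For 7 of them (Ddb2, Fanca, Fancf, Fanci, Fancl, Rad54l and Rev1) the overlap takes over 10% of the exon bases and the partner, on the opposite strand, reached 1 FPKM on average, so reads of the pair may not be told apart. Some partners were far more abundant: Eif5b (18.9 FPKM on average) beside Rev1 (2.36) and Lrrc41 (18.9) beside Rad54l (2.56). Polg (12.9) lay beside Fanci (0.767) and Acp2 (12.9) beside Ddb2 (1.34). The partners of Fanca, Fancf and Fancl stood at 1.92 to 3.61 FPKM.

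Most of the repair genes were transcribed at low levels. Over the 12 libraries, Usp1, the deubiquitinase that takes ubiquitin off FANCD2, was the most abundant at 21.9 FPKM (range 17.3 to 26.6). Slx4, the nuclease scaffold, followed at 5.96 FPKM, and Mad2l2, a subunit of polymerase zeta, at 5.91 FPKM. The ranges of Slx4 (4.06 to 10.3) and Mad2l2 (3.38 to 8.73) overlap almost fully, so these neighbours in the order were not set apart. The other 36 members had means from 0.582 FPKM in Fancb, a core complex subunit on the X chromosome, to 4.76 FPKM in Rad51d, a gene of homologous recombination. Low FPKM values are uncertain, and log2(FPKM + 1) changes understate the change of such genes.

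**Figure D1:**
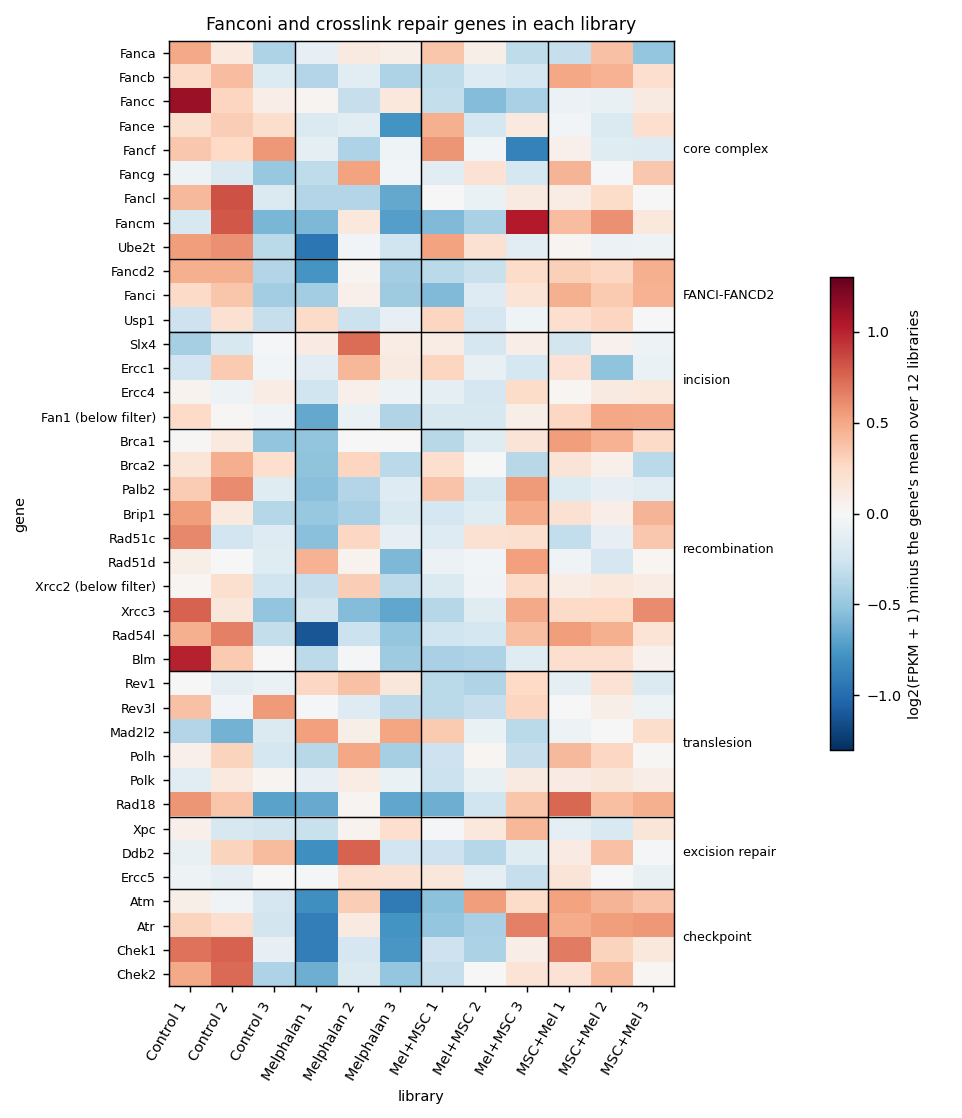
Each row is a repair gene and each column a library; the colour gives log2(FPKM + 1) minus the gene's own mean over the 12 libraries, red above and blue below, with role blocks named at the right. Chek1, Chek2, Atm and Atr are blue in Melphalan 1 and 3 and paler or red in Melphalan 2, and Control 3 is bluer than Control 1 and 2 in many rows.

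Melphalan against Control asked how the drug group differed from the control group. Of the 37 tested repair genes 0 passed the test in either direction (limma on log2(FPKM + 1), adjusted over all tested genes), beside 1.33% of all tested genes. The fitted changes lay mostly below 0: 28 of 37 had a fitted change below 0, beside 47.5% of all tested genes, and their median was -0.40 on the log2 scale beside 0.03 over all tested genes. At an unadjusted p under 0.05 stood 9 lower (background 9.37%), in 3 core genes, 3 recombination genes, 1 translesion gene and 2 checkpoint genes, and 2 higher (background 8.81%). With no overlap between the 3 Melphalan and the 3 Control libraries, 6 lay lower (background 10.7%), namely Fance, Fancf, Fancl, Palb2, Blm and Chek1, and 3 lay higher (background 8.82%), namely Slx4, Rev1 and Mad2l2. Without the limit on low values 30 of all 39 members lay lower, and the median change over all 26048 genes of that fit was 0. The share of those genes below 0 was not counted, and the added Fan1 and Xrcc2 lie at low levels. In whole tissue, fewer cells of a type and less RNA per cell cannot be told apart. Chek1 passed the test without Control 3 (adjusted p = 0.0296) and without Melphalan 2 (0.047, range 0.0296 to 0.30 over its alternatives). Without Control 3 Fancl (0.0244, range 0.0244 to 0.339) and Chek2 (0.0361, range 0.0361 to 0.538) passed it too, all by limma and all lower in Melphalan. Over all tested genes the share called was then 3.32% without Control 3 and 3.21% without Melphalan 2, so more genes were called in general.

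**Figure D2:**
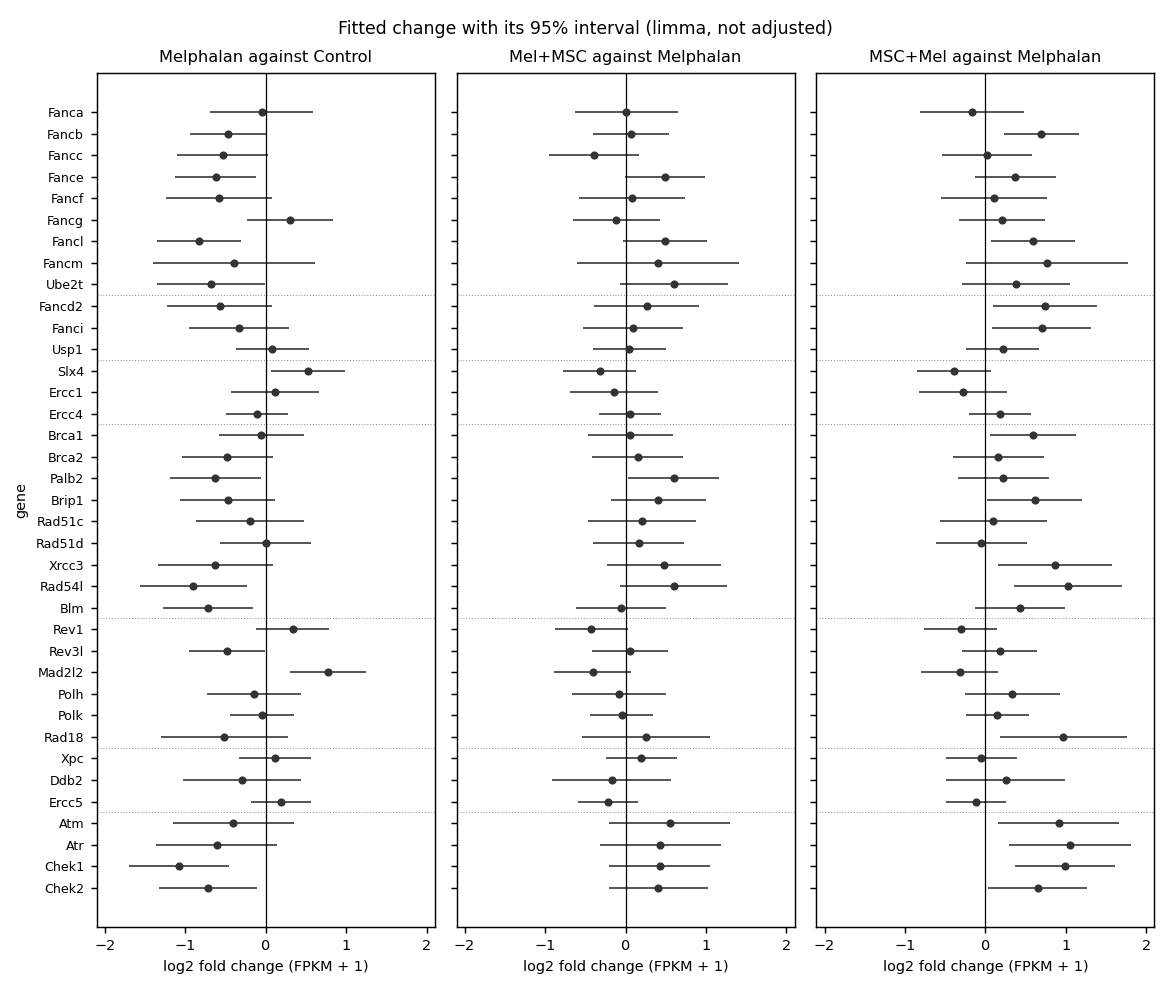
Each point is the fitted log2 fold change (FPKM + 1) of a tested repair gene and each bar its 95% interval, not adjusted for the number of genes, in 3 comparisons; dotted lines part the roles in the order of the gene names. In the left panel Chek1 lies lowest at -1.08 and Mad2l2 highest at 0.77, and in the right panel the 4 checkpoint kinases lie above 0.

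The 4 checkpoint kinases lay lower in Melphalan in their fitted changes, with a median of -0.66. Chek1 encodes CHK1, the kinase that ATR switches on at stalled forks (ENSMUSG00000032113, chromosome 9, 36708482 to 36727065, minus strand, build GRCm38). Chek1 stood at 3.91, 4.11 and 1.78 FPKM in the Control libraries and at 0.614, 1.58 and 0.784 FPKM in the Melphalan libraries. Its Mel+MSC values were 1.49, 1.26 and 2.2 FPKM and its MSC+Mel values 3.79, 2.68 and 2.3 FPKM. All 3 Melphalan values were under every Control value, with Melphalan 2 and Control 3 nearest to each other (log2 fold change -1.08, SE 0.29, limma adjusted p = 0.0893). Chek2 encodes CHK2, the kinase downstream of ATM. Chek2 stood at 5.61, 6.81 and 2.55 FPKM in the Control libraries and at 2.02, 3.12 and 2.3 FPKM in the Melphalan libraries. Mel+MSC held 2.81, 3.71 and 4.32 FPKM of it and MSC+Mel 4.33, 5.25 and 3.77 FPKM. The groups overlapped through Control 3 and Melphalan 2 (log2 fold change -0.72, SE 0.28, limma adjusted p = 0.207). Atm, the kinase of double-strand breaks, had its highest Melphalan value in Melphalan 2 as well. Its levels were 1.54, 1.34 and 1.07 FPKM in Control and 0.385, 2.0 and 0.277 FPKM in Melphalan (log2 fold change -0.40, SE 0.34, limma adjusted p = 0.569). Atr, the kinase of stalled forks, had 2.25, 2.09 and 1.25 FPKM in Control and 0.424, 1.88 and 0.551 FPKM in Melphalan (log2 fold change -0.61, SE 0.34, limma adjusted p = 0.373). Melphalan 2 lay above every Control library in Atm and within the Control range in Atr. For both kinases Melphalan 1 and 3 lay under every Control library.

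In the core complex and its partner enzyme 8 of 9 genes had a fitted change below 0 (median -0.54). Fancl encodes the ubiquitin ligase of the complex (ENSMUSG00000004018, chromosome 11, 26386135 to 26471876, plus strand). Fancl stood at 3.52, 4.97 and 1.96 FPKM in the Control libraries and at 1.58, 1.59 and 1.12 FPKM in the Melphalan libraries. In Mel+MSC it stood at 2.39, 2.18 and 2.65 FPKM and in MSC+Mel at 2.61, 2.99 and 2.37 FPKM. All Melphalan libraries lay under all others of this gene, in Control and in both combined groups (log2 fold change -0.83, SE 0.24, limma adjusted p = 0.105). Fance, the subunit that bridges the complex to FANCD2, was the other core gene with the smallest p. Fance stood at 4.53, 5.0 and 4.61 FPKM in the Control libraries and at 3.2, 3.36 and 1.79 FPKM in the Melphalan libraries. Its Mel+MSC values were 5.61, 3.08 and 4.23 FPKM and its MSC+Mel values 3.69, 3.22 and 4.57 FPKM. It did not overlap between Melphalan and Control, but Mel+MSC 2 and MSC+Mel 2 lay within the Melphalan range (log2 fold change -0.62, SE 0.23, limma adjusted p = 0.182). Fancf, an adaptor subunit, stood at 3.87 ± 0.544 FPKM in Control and 2.26 ± 0.402 FPKM in Melphalan (mean ± SD, n = 3, limma adjusted p = 0.338), again without overlap. Ube2t, the conjugating enzyme, stood at 3.04 ± 1.3 and 1.51 ± 0.75 FPKM and overlapped (limma adjusted p = 0.271). Fancg, another adaptor, was the 1 core gene with a fitted change above 0 (0.30, limma adjusted p = 0.547). Over the 12 libraries the remaining core genes ranged from 1.27 to 3.54 FPKM in Fanca, 0.164 to 1.18 in Fancb, 1.42 to 6.75 in Fancc and 0.225 to 3.12 in Fancm, the translocase that finds the stalled fork.

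Of the pair that receives the ubiquitin mark and its deubiquitinase, Fancd2 and Fanci lay low in every group. Fancd2 stood at 1.57, 1.55 and 0.425 FPKM in the Control libraries and at 0.0924, 0.904 and 0.364 FPKM in the Melphalan libraries. Mel+MSC held 0.463, 0.517 and 1.2 FPKM of it and MSC+Mel 1.31, 1.23 and 1.57 FPKM. Melphalan 2 was the highest of its group and Control 3 the lowest of its own, so the groups overlapped (log2 fold change -0.57, SE 0.30, limma adjusted p = 0.336). Fanci stood at 1.03, 1.19 and 0.245 FPKM in the Control libraries and at 0.249, 0.793 and 0.242 FPKM in the Melphalan libraries. In Mel+MSC it stood at 0.145, 0.522 and 0.935 FPKM and in MSC+Mel at 1.36, 1.16 and 1.33 FPKM. MSC+Mel was the group with the narrowest spread of Fanci, and the Melphalan and Control libraries overlapped (log2 fold change -0.33, SE 0.28, limma adjusted p = 0.571). Usp1 stood at 20.04 ± 4.22 FPKM in Control and 21.2 ± 4.25 FPKM in Melphalan (n = 3 each), a difference within the spread (log2 fold change 0.08, SE 0.21, limma adjusted p = 0.861).

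Slx4, the scaffold of the incision nucleases, lay higher in Melphalan (ENSMUSG00000039738, chromosome 16, 3979105 to 4003770, minus strand). Slx4 stood at 4.06, 4.92 and 5.77 FPKM in the Control libraries and at 6.37, 10.3 and 6.28 FPKM in the Melphalan libraries. Its Mel+MSC values were 6.3, 4.86 and 6.27 FPKM and its MSC+Mel values 4.81, 6.11 and 5.54 FPKM. Every Melphalan library lay above every Control library, and the highest of all was Melphalan 2 (log2 fold change 0.53, SE 0.21, limma adjusted p = 0.212). Ercc4 encodes XPF, the nuclease that cuts beside the crosslink together with ERCC1. Ercc4 stood at 2.72, 2.43 and 2.84 FPKM in the Control libraries and at 2.0, 2.76 and 2.44 FPKM in the Melphalan libraries. Mel+MSC held 2.29, 2.09 and 3.24 FPKM of it and MSC+Mel 2.65, 2.91 and 2.94 FPKM. Its Melphalan and Control values overlapped (log2 fold change -0.11, SE 0.18, limma adjusted p = 0.768). Ercc1 ranged from 1.73 to 4.27 FPKM over the 12 libraries (fitted change 0.11, limma adjusted p = 0.833). Fan1, a nuclease recruited by FANCD2 and too low to be tested, stood at 0.971, 0.667 and 0.601 FPKM in Control and 0.0396, 0.553 and 0.263 FPKM in Melphalan. In the combined groups Fan1 stood at 0.432, 0.431 and 0.744 FPKM (Mel+MSC) and 0.996, 1.34 and 1.33 FPKM (MSC+Mel).

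Among the recombination genes 8 of 9 tested had a fitted change below 0 (median -0.48). Rad54l, a motor protein that acts in strand pairing, was the one with the smallest p. Rad54l stood at 3.62, 4.29 and 1.71 FPKM in the Control libraries and at 0.556, 1.77 and 1.37 FPKM in the Melphalan libraries. In Mel+MSC it stood at 1.8, 1.87 and 3.4 FPKM and in MSC+Mel at 3.88, 3.63 and 2.8 FPKM. Control 3 lay just under Melphalan 2, so these groups overlapped (log2 fold change -0.90, SE 0.30, limma adjusted p = 0.153). Blm, the helicase that resolves recombination intermediates with topoisomerase III alpha, followed. Blm stood at 3.44, 1.81 and 1.21 FPKM in the Control libraries and at 0.761, 1.2 and 0.622 FPKM in the Melphalan libraries. Its Mel+MSC values were 0.659, 0.684 and 0.995 FPKM and its MSC+Mel values 1.59, 1.59 and 1.31 FPKM. The Melphalan libraries lay under all Control libraries by a small margin (log2 fold change -0.71, SE 0.25, limma adjusted p = 0.171). Palb2, which links BRCA1 to BRCA2, stood at 1.62, 2.19 and 0.865 FPKM in Control and 0.43, 0.592 and 0.853 FPKM in Melphalan, also without overlap (limma adjusted p = 0.227). Brca1 itself differed by less than its spread, with 1.32 ± 0.518 FPKM in Control and 1.23 ± 0.424 FPKM in Melphalan (n = 3 each). Its fitted change was -0.05 with a 95% interval of -0.58 to 0.48. Brca2, which acts with PALB2 in recombination, stood at 1.9 ± 0.341 and 1.13 ± 0.652 FPKM (limma adjusted p = 0.355). Brip1, a helicase partner of BRCA1, stood at 1.85 ± 0.875 and 0.992 ± 0.214 FPKM (limma adjusted p = 0.375). The recombination genes Rad51c, Rad51d and Xrcc3 had fitted changes of -0.20, 0.00 and -0.62, none past the threshold. Xrcc2, another gene of this route and below the limit for testing, ranged from 0.246 to 0.97 FPKM.

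The translesion genes did not lean 1 way: 4 of 6 lay lower and 2 higher in their fitted changes (median -0.09). Mad2l2 encodes REV7, which joins REV3L to REV1 in polymerase zeta and also guards double-strand break ends (ENSMUSG00000029003, chromosome 4, 148130384 to 148145699, plus strand). Mad2l2 stood at 4.15, 3.38 and 4.9 FPKM in the Control libraries and at 8.73, 6.08 and 8.62 FPKM in the Melphalan libraries. Mel+MSC held 7.48, 5.31 and 4.29 FPKM of it and MSC+Mel 5.41, 5.72 and 6.9 FPKM. Every Melphalan library lay above every Control library, and Melphalan 2 was the lowest of its group (log2 fold change 0.77, SE 0.22, limma adjusted p = 0.10). Rev3l, the catalytic subunit of the same polymerase, lay on the other side. Rev3l stood at 6.09, 4.34 and 6.99 FPKM in the Control libraries and at 4.35, 3.87 and 3.3 FPKM in the Melphalan libraries. In Mel+MSC it stood at 3.27, 3.44 and 5.64 FPKM and in MSC+Mel at 4.43, 4.73 and 4.19 FPKM. Melphalan 1 reached the lowest Control library, so these groups overlapped (log2 fold change -0.48, SE 0.21, limma adjusted p = 0.268). Rev1, the scaffold of the translesion polymerases, stood at 2.33, 2.04 and 2.12 FPKM in Control and 2.98, 3.32 and 2.68 FPKM in Melphalan, without overlap (limma adjusted p = 0.419). The more abundant Eif5b shares 26.6% of the exon bases of Rev1, so reads of Eif5b may be part of these levels. Rad18, the ligase that marks PCNA, also overlapped, with 3.01, 2.45 and 0.662 FPKM in Control and 0.702, 1.76 and 0.677 FPKM in Melphalan (limma adjusted p = 0.48). Polh and Polk, polymerases eta and kappa, ranged from 0.989 to 2.81 and 0.872 to 1.52 FPKM, with fitted changes of -0.14 and -0.05.

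The excision repair genes showed no common lean. Ercc5, the nuclease XPG, had the smallest p of the 3. Ercc5 stood at 3.28, 3.11 and 3.45 FPKM in the Control libraries and at 3.41, 4.22 and 4.12 FPKM in the Melphalan libraries. Its Mel+MSC values were 3.96, 3.12 and 2.63 FPKM and its MSC+Mel values 4.01, 3.45 and 3.17 FPKM. The Melphalan libraries lay near the upper end of the Control range or above it (log2 fold change 0.20, SE 0.17, limma adjusted p = 0.579). Ddb2, a damage sensor of this route, had widely spread values in the drug group. Ddb2 stood at 1.1, 1.75 and 1.98 FPKM in the Control libraries and at 0.294, 2.83 and 0.888 FPKM in the Melphalan libraries. Mel+MSC held 0.87, 0.739 and 1.01 FPKM of it and MSC+Mel 1.43, 1.92 and 1.23 FPKM. Melphalan 2 was the highest and Melphalan 1 the lowest of all 12 libraries (log2 fold change -0.29, SE 0.34, limma adjusted p = 0.677). Xpc, the other damage sensor, stood at 2.52 ± 0.417 and 2.84 ± 0.674 FPKM (n = 3 each, limma adjusted p = 0.788).

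Single libraries stood apart across many of the repair genes at once. Control 3 was the lowest of the 3 Control libraries in 24 of 37 tested repair genes (64.9%), beside 31.1% of all tested genes. Melphalan 2 was the highest of the Melphalan libraries in 26 of 37 (70.3%, beside 36.2%), and Mel+MSC 3 of its group in 22 (59.5%, beside 39.3%). The mean level of the 37 genes on the log2(FPKM + 1) scale was 1.94, 1.92 and 1.54 in Control. It was 1.35, 1.73 and 1.42 in Melphalan, 1.58, 1.56 and 1.79 in Mel+MSC and 1.87, 1.85 and 1.81 in MSC+Mel. Melphalan 1 and 3 thus lay lowest and the MSC+Mel libraries lay close together, while Control 3 lay in the range of the Melphalan libraries. The S phase mean was 2.16, 2.93 and 2.48 in Melphalan beside 2.57 to 3.41 in Control, and the G2 and M phase mean (29 genes) was 1.8 to 2.58 beside 2.9 to 4.0. The summed level of the 10 B cell markers, all of them tested, was 0.876 to 569 FPKM in Melphalan and 3.37 to 51.3 FPKM in Control libraries. Mel+MSC libraries had 2.16 to 70.4 FPKM, and MSC+Mel libraries 4.59 to 38.6 FPKM. Of these markers 0 to 3 were listed at 0 in a Control library, 0 to 4 in a Melphalan, 0 to 6 in a Mel+MSC and 0 to 3 in an MSC+Mel library. Without Melphalan 2 the median of the repair genes between Melphalan and Control was -0.48, without Control 3 it was -0.49, and with all libraries -0.40. It was -0.24 without Melphalan 3, -0.27 without Control 1, -0.29 without Melphalan 1 and -0.37 without Control 2. Genes lying lower without overlap numbered 15 without Melphalan 2 (background 19.2%) and 19 without Control 3 (background 17.5%), in place of 6 (background 10.7%). Leaving out any library can only keep or raise such a count. These 2 libraries were picked after the data were seen, and no such count was made without another library. The MSC+Mel libraries were the most alike: the mean variance of the repair genes was 0.0365 in them, beside 0.15 in Control, 0.128 in Melphalan and 0.132 in Mel+MSC (log2 scale). Over all tested genes it was 0.0806 in MSC+Mel and 0.176, 0.42 and 0.293 in the others. The part of cell division and of B cells in these levels was not tested.

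**Figure D3:**
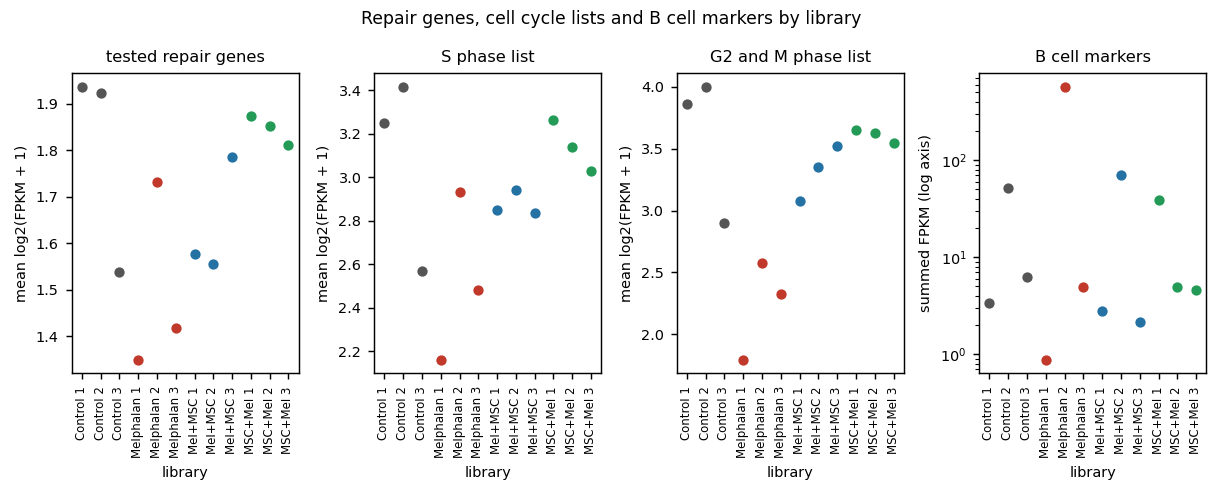
Each point is a library, coloured by group; the first 3 panels give the mean log2(FPKM + 1) of the 37 tested repair genes, the S phase list and the G2 and M phase list, and the last the summed FPKM of 10 B cell markers on a log axis. Melphalan 1 is lowest in the first 3 panels, Control 3 lies far under Control 1 and 2 there, and Melphalan 2 lies above every other library in B cell markers.

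MSC+Mel against Melphalan asked how the group named with the cells first differed from the drug alone. Of 37 tested repair genes 0 passed the test by limma, beside 1.24% of all tested genes. At an unadjusted p under 0.05 stood 13 higher (background 11.3%) and 0 lower (background 10.9%). The fitted change was above 0 in 29 of 37 (background 45.9%), with a median of 0.25 beside -0.05 over all tested genes. In 15 genes every MSC+Mel library lay above every Melphalan library (background 16.3%), and in 1, Slx4, every one lay below (background 17.2%). These 15 held all 4 checkpoint kinases, Rad18, Fancd2 and Fanci, the core genes Fancb, Fancl and Fancm, and the recombination genes Brca1, Brip1, Xrcc3, Rad54l and Blm. Chek1 stood at 3.79, 2.68 and 2.3 FPKM beside 0.614, 1.58 and 0.784 FPKM in Melphalan, the repair gene with the smallest p here (log2 fold change 0.99, SE 0.29, limma adjusted p = 0.093). Rad54l had 3.88, 3.63 and 2.8 beside 0.556, 1.77 and 1.37 FPKM (log2 fold change 1.02, SE 0.30, limma adjusted p = 0.0986). Atr was tight in the combined group, at 2.71, 2.88 and 2.93 FPKM (log2 fold change 1.05, SE 0.34, limma adjusted p = 0.12). Atm stood at 2.46, 2.28 and 2.12 FPKM beside 0.385, 2.0 and 0.277 FPKM in Melphalan (log2 fold change 0.91, SE 0.34, limma adjusted p = 0.159). Among its alternatives it passed the test without Melphalan 2 and under none of the others (limma adjusted p = 0.0422, range 0.0422 to 0.359 over its alternatives). Without that library the repair gene median was 0.49, and 22 genes lay higher without overlap (background 25.8%). The share of all tested genes called was 3.18% in that fit. Fancb stood at 1.18, 1.1 and 0.789 FPKM beside 0.181, 0.405 and 0.164 FPKM (log2 fold change 0.70, SE 0.21, limma adjusted p = 0.109). It reached 1 FPKM only in MSC+Mel 1, MSC+Mel 2 and Control 2, so it was tested in part through the group where it was high. The S phase list had a median fitted change of 0.61 and the G2 and M phase list one of 1.37. Their part in the repair gene levels was not tested.

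**Figure D4:**
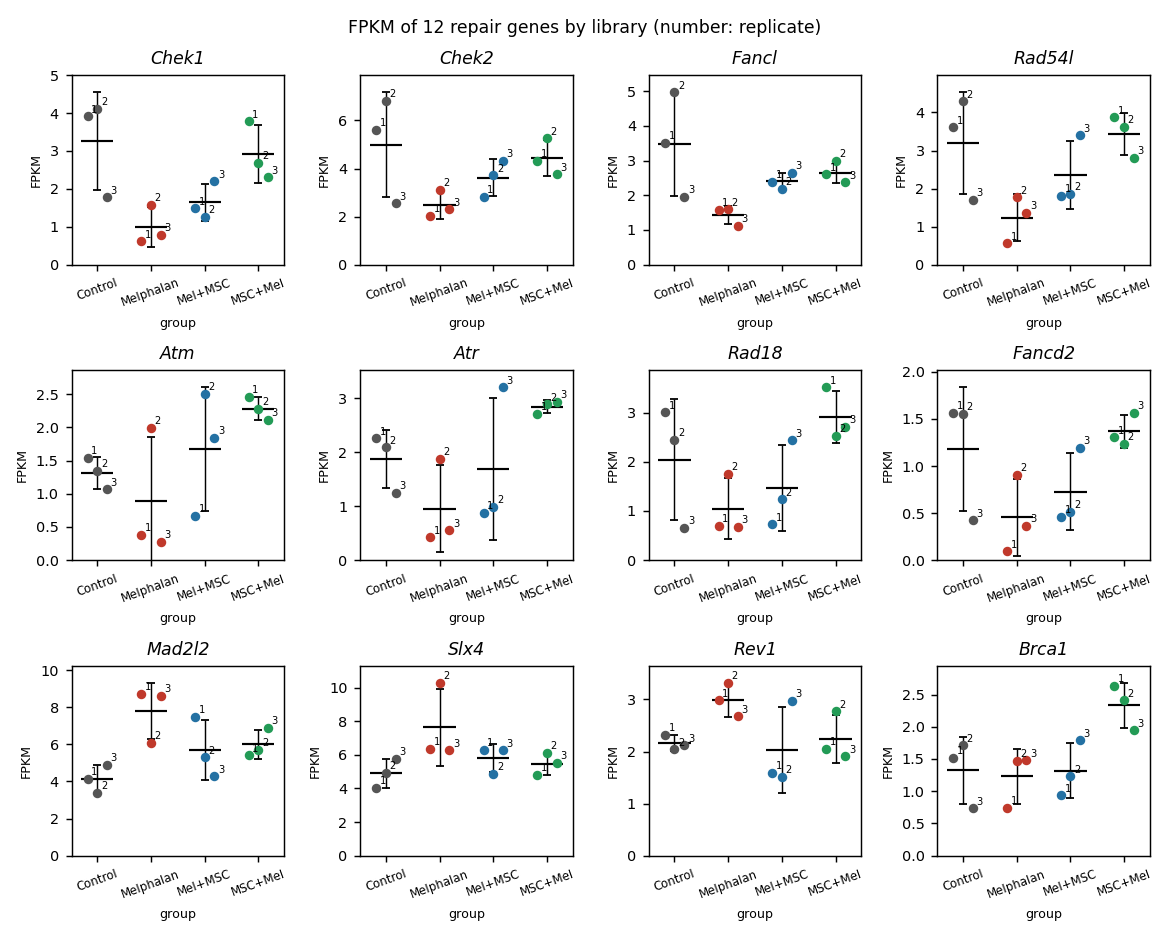
Each panel is a repair gene with FPKM on the vertical axis; points are libraries numbered by replicate, the wide line is the group mean and the bar its SD over 3 libraries (cut off at 0). Chek1 and Fancl have their lowest mean in Melphalan, Mad2l2 and Slx4 lie higher there than in Control, and Brca1 lies highest in MSC+Mel.

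Mel+MSC against Melphalan asked the same of the group named with the drug first. Of 37 tested repair genes 0 passed the test by limma, beside 0.156% of all tested genes. At an unadjusted p under 0.05 stood 1 higher, Palb2 (background 7.16%), and 0 lower (background 6.44%). The fitted change was above 0 in 26 of 37 (background 49%), with a median of 0.09 beside -0.01. Fancl and Rad54l lay above Melphalan in every library (2 genes, background 8.37%) and Fancc lay below in every library (1, background 5.91%). Fancl stood at 2.39, 2.18 and 2.65 FPKM beside 1.58, 1.59 and 1.12 FPKM in Melphalan (log2 fold change 0.49, SE 0.24, limma adjusted p = 0.395). Palb2 stood at 1.69, 0.795 and 2.04 beside 0.43, 0.592 and 0.853 FPKM and overlapped through 1 library (log2 fold change 0.60, SE 0.26, limma adjusted p = 0.344). Fancc, a core adaptor, stood at 1.87, 1.42 and 1.67 FPKM beside 2.66, 1.9 and 2.94 FPKM (log2 fold change -0.39, SE 0.26, limma adjusted p = 0.528). Without Melphalan 2 the median was 0.22, and 12 genes lay above without overlap (background 14.9%). Both comparisons with Melphalan share its 3 libraries, so their values are not independent of each other or of the drug comparison.

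Between the combined groups, MSC+Mel against Mel+MSC, 0 of 37 repair genes passed the test by limma, beside 0.00778% of all tested genes. At an unadjusted p under 0.05 stood 2 higher in MSC+Mel, Fancb and Brca1 (background 5.27%), and 0 lower (background 6.89%). The fitted change was above 0 in 28 of 37 (background 48.6%), with a median of 0.20. That median was 0.10 after quantile normalization and 0.32 without Mel+MSC 3, where limma called 3.17% of all tested genes and 0 repair genes. In 9 genes all MSC+Mel libraries lay above all Mel+MSC libraries (background 11.7%), namely Fancb, Fancc, Fancd2, Fanci, Brca1, Blm, Rad18, Ddb2 and Chek1, and in 0 all lay below (background 11.8%). Fancb stood at 1.18, 1.1 and 0.789 FPKM in MSC+Mel and at 0.223, 0.375 and 0.319 FPKM in Mel+MSC (log2 fold change 0.63, SE 0.21, limma adjusted p = 0.328). Here too it was tested in part through MSC+Mel 1 and MSC+Mel 2, where it was high. Brca1 stood at 2.64, 2.41 and 1.95 and at 0.938, 1.23 and 1.79 FPKM (log2 fold change 0.53, SE 0.24, limma adjusted p = 0.411). Blm stood at 1.59, 1.59 and 1.31 and at 0.659, 0.684 and 0.995 FPKM (log2 fold change 0.49, SE 0.25, limma adjusted p = 0.458). Mel+MSC 3 lay apart from the other libraries of its group in some genes. In Atr it held 3.2 FPKM beside 0.879 and 0.985, above every MSC+Mel library. Fancm stood at 0.351, 0.499 and 3.12 FPKM in Mel+MSC, with the highest of the 12 libraries in Mel+MSC 3.

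Set against Control, 0 repair genes passed the test in either combined group. Mel+MSC against Control gave 0 of 37 by limma, beside 0% of all tested genes, with 0 higher (background 2.61%) and 3 lower (background 2.79%) at an unadjusted p under 0.05. The fitted change was below 0 in 27 of 37 (background 47.9%), with a median of -0.10. After quantile normalization 19 of 37 lay below 0 with a median of -0.00437, and without Control 3 the median was -0.30. Fancc, Blm and Ddb2 lay below Control in every library (3 genes, background 5.07%) and 0 lay above (background 5.4%). Without Control 3, 13 lay below (background 11.5%) and 1 above (background 12.4%). Fancc stood at 6.75, 3.34 and 2.79 FPKM in Control (log2 fold change -0.93, SE 0.26, limma adjusted p = 0.684), where Control 1 was the highest of the 12 libraries. MSC+Mel against Control gave 0 of 37 by limma, beside 0.171% of all tested genes, with 1 higher (background 5.61%), Brca1, and 0 lower (background 6.13%). The fitted change was below 0 in 16 of 37 (background 51.2%), with a median of 0.07. Without Control 3, 19 of 37 lay below 0 and the median was -0.08. Both medians were small beside the SD of the median repair gene level between libraries of a group (0.20, log2 scale), so neither shows a lean. Fancg, Brca1, Mad2l2, Atm and Atr lay above Control without overlap (5 genes, background 13.4%) and Fancf lay below (1, background 14.4%). Without Control 3, 8 lay below (background 20.7%) and 5 above (background 21%). Brca1 had 2.33 ± 0.351 FPKM in MSC+Mel beside 1.32 ± 0.518 FPKM in Control (n = 3 each, log2 fold change 0.54, SE 0.24, limma adjusted p = 0.416). For Chek1 the 95% interval of the MSC+Mel to Control difference ran from -0.71 to 0.54, and for Rad54l from -0.54 to 0.79, and both include 0.

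Other genes of the same routes were counted from lists that hold none of the 39. Of 48 further crosslink and recombination genes 45 were tested. In Melphalan against Control 1 of them fell (background 1.33% called in either direction), with 35 of 45 below 0 (background 47.5%, median -0.29). That gene was Dclre1a, which encodes SNM1A, an exonuclease that digests past an unhooked crosslink. It stood at 4.69, 3.88 and 3.98 FPKM in Control and 1.92, 1.78 and 1.73 FPKM in Melphalan, with no overlap. The combined groups held 3.45, 2.39 and 2.82 FPKM (Mel+MSC) and 2.23, 2.41 and 2.95 FPKM (MSC+Mel), between the other groups. Its change was -0.88 (SE 0.17, limma adjusted p = 0.0332, range 0.0291 to 0.177 over its alternatives). The call was lost without Control 1, without Control 2, without Melphalan 1, without Melphalan 3, with no limit on low values, after quantile normalization, in a fit of these 2 groups alone and when replicate numbers were blocked, while the direction stayed. These alternatives for Dclre1a and Nbn were chosen after seeing the data. In MSC+Mel against Melphalan 1 of the 45 rose (background 1.24% called in either direction). That gene was Nbn, the NBS1 subunit of the MRN complex that senses double-strand breaks. Nbn stood at 6.06, 7.04 and 5.54 FPKM in Control and 3.22, 4.06 and 3.4 FPKM in Melphalan. It stood at 3.33, 3.38 and 3.63 FPKM in Mel+MSC and 7.37, 6.89 and 7.43 FPKM in MSC+Mel. The 6 libraries of Melphalan and Mel+MSC thus lay under the 6 of Control and MSC+Mel. The rise over Melphalan was 0.86 (SE 0.15, limma adjusted p = 0.031, range 0.0266 to 0.139), and the difference between the combined groups did not pass (0.89, limma adjusted p = 0.17). The Nbn call was lost without Melphalan 1, without Melphalan 3, without any 1 of the MSC+Mel libraries and when replicate numbers were blocked.

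For the lists below, the background in Melphalan against Control was 1.33% of all tested genes called by limma. At an unadjusted p under 0.05 it was 9.37% lower and 8.81% higher. Of 25 further excision repair genes 0 passed the test in Melphalan against Control by limma, with 2 lower and 0 higher at that unadjusted p (median -0.20). Lig1, the ligase that seals repaired and replicated strands, had the smallest p, at 10.3, 11.6 and 8.48 FPKM in Control and 1.68, 7.29 and 6.26 FPKM in Melphalan (limma adjusted p = 0.189). Of 17 further translesion and damage tolerance genes 0 passed, with 4 lower and 0 higher at that p (median -0.15). Pold3, a subunit of polymerase delta, stood at 8.5, 10.9 and 8.87 and 6.63, 7.3 and 5.72 FPKM, without overlap (limma adjusted p = 0.144). Pcna, the sliding clamp that RAD18 marks, stood at 85.3, 95.5 and 79.5 and 69.8, 59.4 and 66.4 FPKM (limma adjusted p = 0.226). Of 20 further checkpoint genes 0 passed, with 5 lower and 1 higher at that p (median -0.35). Rad1, part of the clamp that activates ATR, stood at 7.27, 7.43 and 6.02 and 4.71, 4.49 and 3.07 FPKM (limma adjusted p = 0.104). Of 4 genes that repair alkylated bases directly or excise them, 0 passed, with 0 lower and 1 higher at that p. The higher one was Mgmt, the methyltransferase that takes alkyl groups off guanine. Mgmt stood at 0.653, 0.488 and 0.588 FPKM in Control and 3.19, 1.02 and 2.94 FPKM in Melphalan. It stood at 0.322, 0.532 and 0.647 FPKM in Mel+MSC and 0.271, 0.397 and 0.534 FPKM in MSC+Mel. The Melphalan libraries lay above all others, with Melphalan 2 nearest to them, and the change missed the threshold (log2 fold change 1.03, SE 0.27, limma adjusted p = 0.0881). Mgmt reached 1 FPKM in the 3 Melphalan libraries alone, so it was tested only through the group where it was high. Its p-values in comparisons with Melphalan, here and below, therefore lend no support to a difference. Against Melphalan the changes were -1.11 in Mel+MSC (limma adjusted p = 0.136) and -1.2 in MSC+Mel (limma adjusted p = 0.0553). In the other comparisons of these 5 lists limma called 0 genes, except for Nbn as given above. At an unadjusted p under 0.05 those comparisons held 0 to 11 higher and 0 to 4 lower genes a list. The 11 were among the 45 crosslink and recombination genes of MSC+Mel against Melphalan (background 11.3%). Over all tested genes those comparisons held 2.61% to 11.3% higher and 2.79% to 10.9% lower at that p.

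Lists of cell division and damage response stand beside these genes, and were also written with earlier results of these data known. In Melphalan against Control 7 of 29 G2 and M phase genes fell (median -1.26), and so did 1 of 35 tested S phase genes, Prim1, a subunit of primase (median -0.46). Of 21 tested p53 target genes 8 rose (median 1.0). Over all tested genes 1.33% were called in either direction there. Ccnb2, cyclin B2, stood at 27.3, 31.6 and 15.5 FPKM in Control and 3.79, 6.07 and 6.13 FPKM in Melphalan (log2 fold change -1.99, SE 0.25, limma adjusted p = 0.00903). Levels of Mki67, which marks cycling cells, were 17.2, 20.4 and 8.95 FPKM in Control and 2.07, 9.19 and 3.86 FPKM in Melphalan, where Melphalan 2 was again the highest of its group (limma adjusted p = 0.0786). Levels of Phlda3, which p53 switches on, were 3.28, 2.05 and 1.5 FPKM in Control and 20.9, 13.7 and 13 FPKM in Melphalan (log2 fold change 2.37, SE 0.29, limma adjusted p = 0.00786). Cdkn1a, the arrest gene p21, stood at 79.3, 66.7 and 111 FPKM in Control and 263, 129 and 261 FPKM in Melphalan and was lowest of its group in Melphalan 2 (limma adjusted p = 0.0573). The 4 checkpoint kinases had fitted changes on the same side of 0 as these division genes and on the other side from these p53 targets. Of all 37 tested repair genes 28 lay on that side, so it was not particular to the kinases. A link between these changes was not tested. Against Melphalan, 7 G2 and M phase genes rose and 3 p53 targets fell in MSC+Mel (background 1.24% called in either direction). In Mel+MSC these counts were 1 and 3 (background 0.156%). At an unadjusted p under 0.05 by limma, 28 of the 29 G2 and M phase genes lay higher in MSC+Mel (background 11.3%) and 25 in Mel+MSC (background 7.16%), with 0 lower in both. Between the combined groups limma called 0 genes of either list. Of the cell type markers, 1 of 7 tested crypt stem cell genes fell in Melphalan against Control, Olfm4, a marker of crypt base cells (median of the list -0.26). Of the 8 remaining marker lists limma called 0 genes. The count at an unadjusted p under 0.05 was 3 of 9 enterocyte, 2 of 8 macrophage and 1 of 5 endothelial genes, all higher (background 8.81%). Their medians were 0.63 for enterocytes, 0.97 for B cells, -0.06 for the 3 tested germinal centre genes, 0.57 for T cells, 1.15 for macrophages, 0.28 for fibroblasts, -0.36 for smooth muscle and 0.26 for endothelium. Melphalan 2 had summed T cell and macrophage markers of 152 and 726 FPKM, the highest of the 12 libraries. The part of these cell types in the repair gene levels was not tested.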

How the data were processed

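The authors deposited a single table of FPKM values, with a row for each gene. Per the submitters' processing notes the authors used STAR, Cufflinks and Cuffnorm, with builds mm10 and GRCm38; versions, annotation release, strand setting and scaling between libraries are not given in the sources used here. Per the labels' protocols, total RNA went into TruSeq libraries. All 12 columns were matched to samples by name (0 unmapped). After genes under 1 FPKM in 10 or more libraries were set aside, limma 3.58.1 (R 4.3.3) fitted log2(FPKM + 1) with an intensity trend, all 12 libraries, 4 group means and 8 residual degrees of freedom. P-values were adjusted by Benjamini-Hochberg within each of 6 comparisons and called under 0.05. The members, roles and 17 other lists were chosen with earlier results of these data known, so no list was tested; H2afx was matched as H2ax through RefSeq synonyms. Genes named with values in every library are the 2 with the smallest p in Melphalan against Control in each of 7 roles; a called member would have been added, and there was none. In the other repair lists, called genes were named, or else the 1 with the smallest p; Pcna, Ccnb2, Mki67, Cdkn1a and Phlda3 were given as context. Fan1, Rev1, Palb2, Fancf, Fancc, Atm, Atr, Rad18, Fancb and Brca1 were added after their values were seen. So were the counts of genes without overlap when Control 3 or Melphalan 2 is left out, in every comparison that gives them. Gene positions are from GENCODE M21 (GRCm38), promoters from RefSeq (GRCm38.p6; 32 of 39 members matched). The script was tested on simulated data. Other settings tried were each library left out, a block for replicate numbers, only the compared groups in the fit, rescaling by median ratios or quantiles, another pseudocount (0.1), and a stricter (mean of at least 5 FPKM) or absent filter. Figures used matplotlib 3.10.9 in Python 3.11.15.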

Additional observations from a re-analysis of the deposited data

How the results depend on the processing

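The count of repair genes called was 0 in all 6 comparisons under every alternative that keeps all libraries of the groups compared. With a library left out it ran from 0 to 3 in Melphalan against Control (3 without Control 3, beside 3.32% of all tested genes; 1 without Melphalan 2, beside 3.21%), from 0 to 1 in MSC+Mel against Melphalan (1 without Melphalan 2, beside 3.18%), and stayed 0 in the other 4. The median change of the repair genes with a library left out ran from -0.49 to -0.24 in Melphalan against Control, 0.05 to 0.22 in Mel+MSC against Melphalan, 0.18 to 0.49 in MSC+Mel against Melphalan, 0.11 to 0.32 in MSC+Mel against Mel+MSC, -0.30 to -0.07 in Mel+MSC against Control and -0.08 to 0.08 in MSC+Mel against Control. With a pseudocount of 0.1, which enlarges changes of low genes by construction, it was -0.75 in Melphalan against Control and 0.48 in MSC+Mel against Melphalan. With a mean of 5 FPKM or more only 3 repair genes remained (Usp1, Slx4 and Mad2l2), with medians of 0.53 (Melphalan against Control), -0.32 (Mel+MSC against Melphalan), -0.32 (MSC+Mel against Melphalan), 0.21 (Mel+MSC against Control) and 0.29 (MSC+Mel against Control). The values showed no clear pairing of libraries by replicate number, and they cannot exclude one. Deviations from the group means of same-numbered libraries correlated from -0.37 to 0.40 in 18 pairs, beside -0.43 to 0.46 in 36 other pairs. Of 12 libraries 5 correlated best with their own number. With replicate numbers blocked the medians were -0.40, 0.09, 0.25, 0.20, -0.10 and 0.07 in the order above and 0 repair genes were called; over all genes limma then called 73 in place of 171 in Melphalan against Control. Read depth is unknown, and most repair genes lie under 5 FPKM, so small changes were not detectable.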
